A study of Mus musculus with 27 samples.

Results

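The genes described here are 10 components of the circadian clock, measured in CD11b+ cells of the mouse prefrontal cortex (PFC) and hippocampus (HC): the activators Arntl (also called Bmal1) and Clock, the repressors Per2, Per3, Cry1 and Cry2, the nuclear receptors Nr1d1 and Nr1d2, and the output factors Dbp and Tef. They were taken as the core loop of the clock and its output factors without Per1, by gene symbol and not by any measured value. All 10 were found, among 53412 gene identifiers in the counts of a minocycline experiment and 55421 in those of an enrichment experiment, and all 10 passed the filter on low counts in both.

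Cells carrying CD11b, an integrin of microglia and other myeloid cells, were sorted from C57BJ6 mice, and polyA RNA was sequenced. In the minocycline experiment, NAIVE was the naive control group (2 PFC and 2 HC libraries), CUMS was given the CUMS protocol (2 PFC and 3 HC), and CUMS_M the same protocol plus minocycline, a tetracycline antibiotic (3 PFC and 3 HC). CUMS is the usual short form of chronic unpredictable mild stress, a rodent model of depression. In the enrichment experiment all mice had the CUMS protocol, and vehicle (VEH) was set against environmental enrichment (EE), housing with added stimuli, with 3 libraries per region in each group. No vehicle is stated for CUMS mice in the minocycline experiment and no unstressed group is labelled in the enrichment experiment. Sex, age and the hour of sampling are stated for neither.

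The clock is a feedback loop of transcription. ARNTL and CLOCK bind E-box motifs as a pair and switch on the Per, Cry, Nr1d and Dbp genes, PER and CRY proteins then repress that pair, and the NR1D receptors compete with ROR receptors at their response elements to repress Arntl. DBP and TEF, with their relative HLF, activate genes through D-box motifs, where NFIL3 represses. In tissues that follow the daily cycle Arntl peaks at a phase roughly opposite to Nr1d1 and Dbp, so the levels of these genes depend on the hour at which a tissue is taken. Microglia are known to carry a working clock of this kind.

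On GRCm38 (GENCODE M21), Arntl spans chr7:113207465-113314126 and Clock chr5:76209868-76304792. The repressors lie at chr1:91415982-91459324 (Per2), chr4:151003652-151044665 (Per3), chr10:85131700-85185064 (Cry1) and chr2:92403646-92434043 (Cry2). Nr1d1 is at chr11:98767932-98775333, Nr1d2 at chr14:18204054-18239127, Dbp at chr7:45705088-45710203 and Tef at chr15:81802421-81826863. RefSeq windows from 250 bases before to 50 after a start site, on build GRCm38.p6, were matched for 9 of the 10 genes, all but Per2. The motifs searched, on both strands, were the E-box CACGTG, the D-box TTATGTAA or TTACGTAA, and AGGTCA, the core of ROR and NR1D response elements. They occurred in 7.15%, 1.06% and 16.3% of 32851 such windows, and no window of these 9 genes held more than 1 of the motifs. The upstream stretches shown are those of the genes on which the values below turn (Arntl, Nr1d2, Dbp) and of a gene each with E-box (Cry1) and D-box (Per3) letters, with every match in capitals. They lie at chr7:113207215-113207464 on the plus strand (Arntl), chr14:18239128-18239356 on the minus strand (Nr1d2), chr7:45704997-45705087 on the plus strand (Dbp), chr10:85185065-85185304 on the minus strand (Cry1) and chr4:151044666-151044915 on the minus strand (Per3), each ending just before its gene's start.
Arntl: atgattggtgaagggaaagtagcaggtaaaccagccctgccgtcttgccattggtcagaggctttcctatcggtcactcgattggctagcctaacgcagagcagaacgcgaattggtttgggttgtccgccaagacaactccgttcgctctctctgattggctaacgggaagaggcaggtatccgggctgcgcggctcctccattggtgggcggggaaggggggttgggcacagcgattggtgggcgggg
Nr1d2: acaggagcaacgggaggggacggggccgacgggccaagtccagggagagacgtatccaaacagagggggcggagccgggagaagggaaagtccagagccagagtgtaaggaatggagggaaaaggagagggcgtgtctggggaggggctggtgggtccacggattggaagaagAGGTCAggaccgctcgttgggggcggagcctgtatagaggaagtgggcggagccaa
Dbp: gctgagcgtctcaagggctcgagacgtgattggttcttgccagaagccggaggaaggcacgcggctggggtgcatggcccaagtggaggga
Cry1: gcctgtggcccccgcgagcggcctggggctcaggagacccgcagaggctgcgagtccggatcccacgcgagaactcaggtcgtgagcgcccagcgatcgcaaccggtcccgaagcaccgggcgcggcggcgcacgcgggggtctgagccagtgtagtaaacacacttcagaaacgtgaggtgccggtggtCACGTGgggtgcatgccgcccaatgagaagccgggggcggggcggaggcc
Per3: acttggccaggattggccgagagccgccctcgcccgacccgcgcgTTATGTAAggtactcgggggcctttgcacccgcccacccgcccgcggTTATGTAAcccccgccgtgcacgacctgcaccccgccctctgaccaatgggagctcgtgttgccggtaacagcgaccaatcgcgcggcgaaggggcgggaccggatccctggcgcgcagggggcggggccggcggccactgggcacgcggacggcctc
Positions are counted from the RefSeq start site of a window. The stretches shown end before the GENCODE start, which lies farther upstream for Cry1, Nr1d2 and Dbp, so positions there do not count from the printed end. Per3 held 2 D-boxes, starting at -205 and -158 from its start site. Cry1 held 1 E-box at -60, Nr1d2 1 AGGTCA at -77, and Tef 1 E-box in each of its 2 windows (-127 and -138). An AGGTCA stood at 32 in the other Arntl window and at -119 in 1 of the 3 Clock windows. The windows of Nr1d1, Dbp and Cry2 held none of these letters, which says nothing of elements farther from the start.

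The libraries held 7.87 to 15.3 M counts in the minocycline experiment and 19.5 to 23.9 M in the enrichment experiment. Itgam, which encodes CD11b, was at 475.5 to 618.7 CPM (counts scaled to a common effective library size) in the former and 460.6 to 636.8 in the latter, and all 12 microglial markers had counts in every library, with a summed level of 37680 to 60680 CPM. Some libraries stood apart. The summed level of 6 choroid plexus markers was 561.5 to 1931 CPM in the HC libraries of the minocycline experiment and 1.31 to 3.34 in its PFC libraries, except 608.2 in PFC CUMS_M 3. In the enrichment experiment these markers did not follow the region labels: they ran from 0.644 to 732.8 CPM in PFC VEH, 12.02 to 1136 in PFC EE, 0.66 to 212 in HC VEH and 510.5 to 1983 in HC EE. PFC NAIVE 1 had the highest summed level of 10 neuronal markers of all libraries, 70.4 CPM, against 11.8 in PFC NAIVE 2. Differences of the 10 genes described below are also given without PFC CUMS_M 3 or PFC NAIVE 1 where that moved them over 1.5 times. For clock genes outside the 10 no such values are given. The labels do not say that replicates come from separate animals, so the p-values cover the spread between these libraries, which may be technical. In bulk RNA, fewer cells of a type and less RNA per cell cannot be told apart.

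Levels were first compared between the genes per kilobase of exon, since a longer gene collects more reads at the same abundance. The 10 genes fell into a high and a low set in both experiments. In the minocycline experiment the medians over 15 libraries were 20.8 CPM per kb for Nr1d1, 20.3 for Dbp, 19.5 for Tef and 15.3 for Nr1d2. The other 6 followed at 2.82 for Per3, 2.53 for Clock, 2.34 for Cry2, 2.31 for Cry1, 2.02 for Per2 and 1.38 for Arntl. The lowest library of the high set, Nr1d2 at 11.5 CPM per kb, lay above the highest of the low set, Per3 at 4.47. Neighbours within each set overlapped in their ranges over libraries. In the enrichment experiment, whose counts came from a table made separately, the medians over 12 libraries were 26.1 for Tef, 23.6 for Nr1d2, 19.7 for Dbp and 18.9 for Nr1d1, then 6.29 for Per3, 4.01 for Per2, 3.85 for Clock, 3.15 for Cry1, 2.55 for Cry2 and 1.38 CPM per kb for Arntl. There too the sets stayed apart, with Dbp at 15.3 or more and Per3 at 10.45 or less, and Arntl had the lowest median in both experiments.

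The genes also differed in how far libraries of 1 group spread. The mean coefficient of variation within groups of the minocycline experiment ran from 7.93% for Nr1d2 to 24.9% for Arntl, with Per2 at 19.8%, Per3 at 18.9% and Dbp at 18.8%. In the enrichment experiment it was highest for Per3 (33.0%) and Per2 (27.7%) and lowest for Arntl, at 6.57%. Arntl rested on 45 to 169 counts per library in the former and 157 to 252 in the latter, and Cry1 on 54 to 139 and 150 to 281, so these were the least deeply counted of the 10. Of the exon bases of Dbp, 18% also lie in exons of Sphk2 on the other strand, and 8.55% of those of Nr1d1 in Thra. The other 8 genes share at most 4.67%. Since the strand setting of the counting is not given in the sources used here, reads of these pairs there cannot be told apart.

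**Figure D1:**
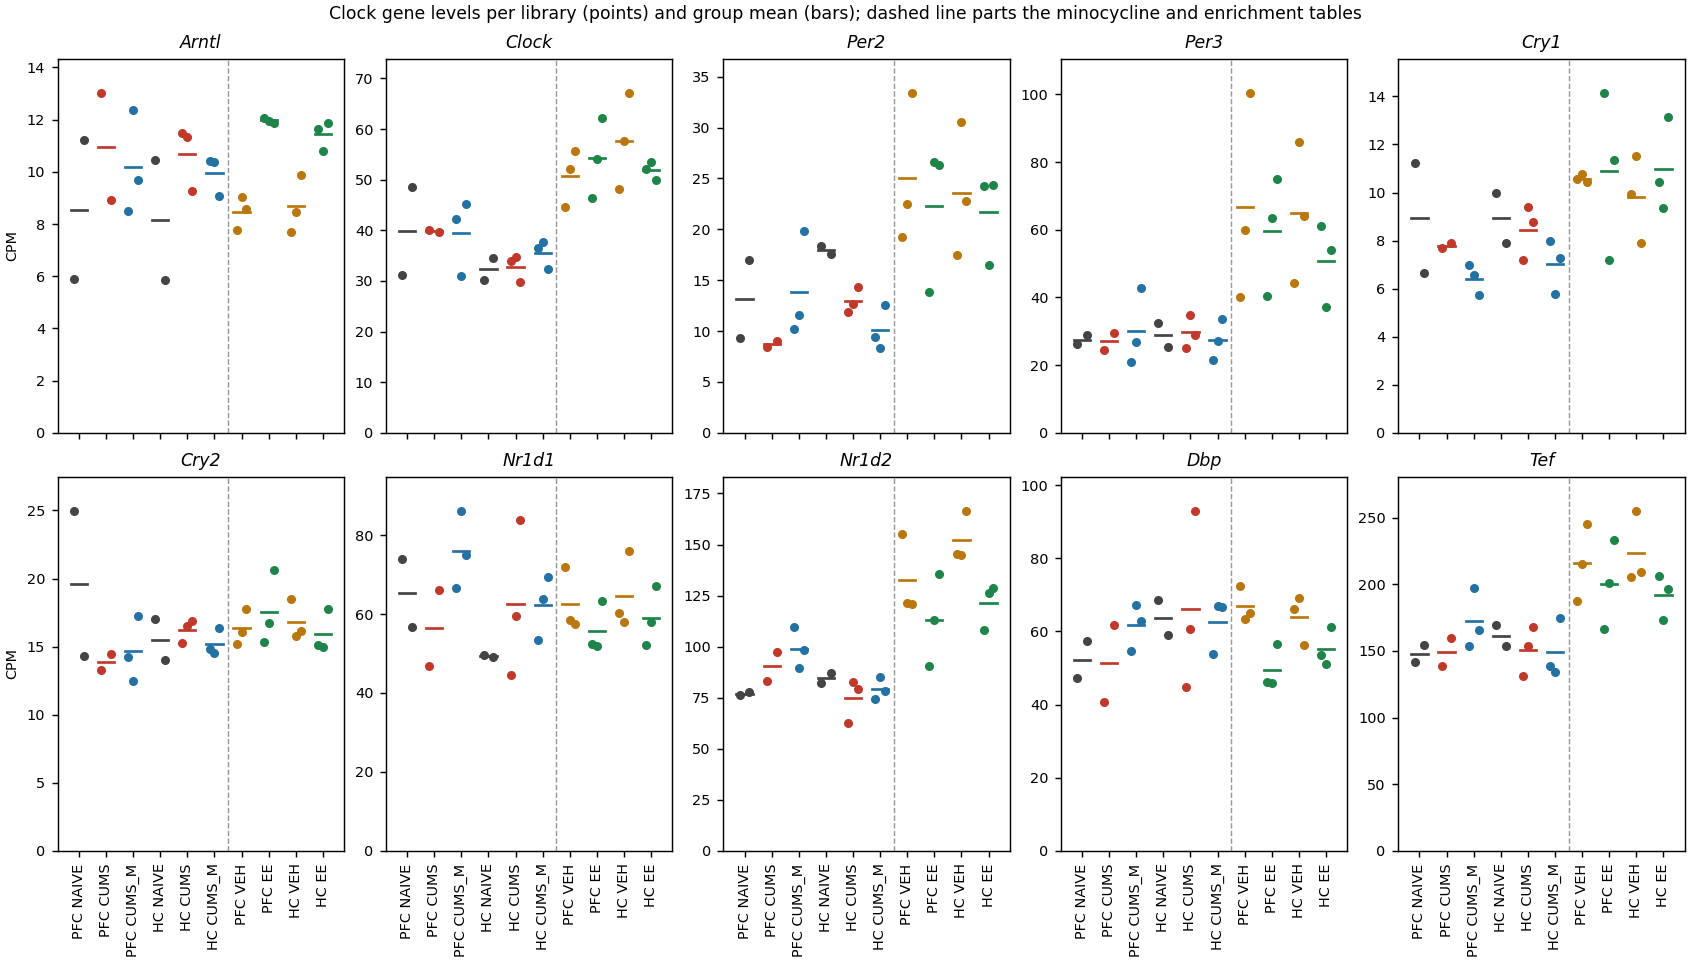
CPM of the 10 genes (vertical axes, from 0) in each library (points) with the group mean (bars), by region and treatment group; colours mark the treatment. Most groups overlap for most genes, while Arntl in the enrichment experiment is at 10.8 to 12.1 CPM in all EE libraries and at 7.68 to 9.89 in all VEH libraries.

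None of the 10 genes passed the edgeR quasi-likelihood test at an adjusted p under 0.05 in any of the 13 comparisons, 6 between treatments in the minocycline experiment, 2 in the enrichment experiment, 2 between regions and 3 of a treatment effect between regions. An unadjusted p under 0.05 was reached in 12 of the 130 tests, and by 2.08% to 19% of all genes, depending on the comparison. DESeq2 called 0 of the 130, 4 of which have no adjusted p there. The smallest adjusted p was 0.184. The fitted differences ran from -1.03 to 0.67 on the log2 scale. A wide interval leaves room for differences that these libraries could not show, so the intervals are given with each comparison.

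**Figure D2:**
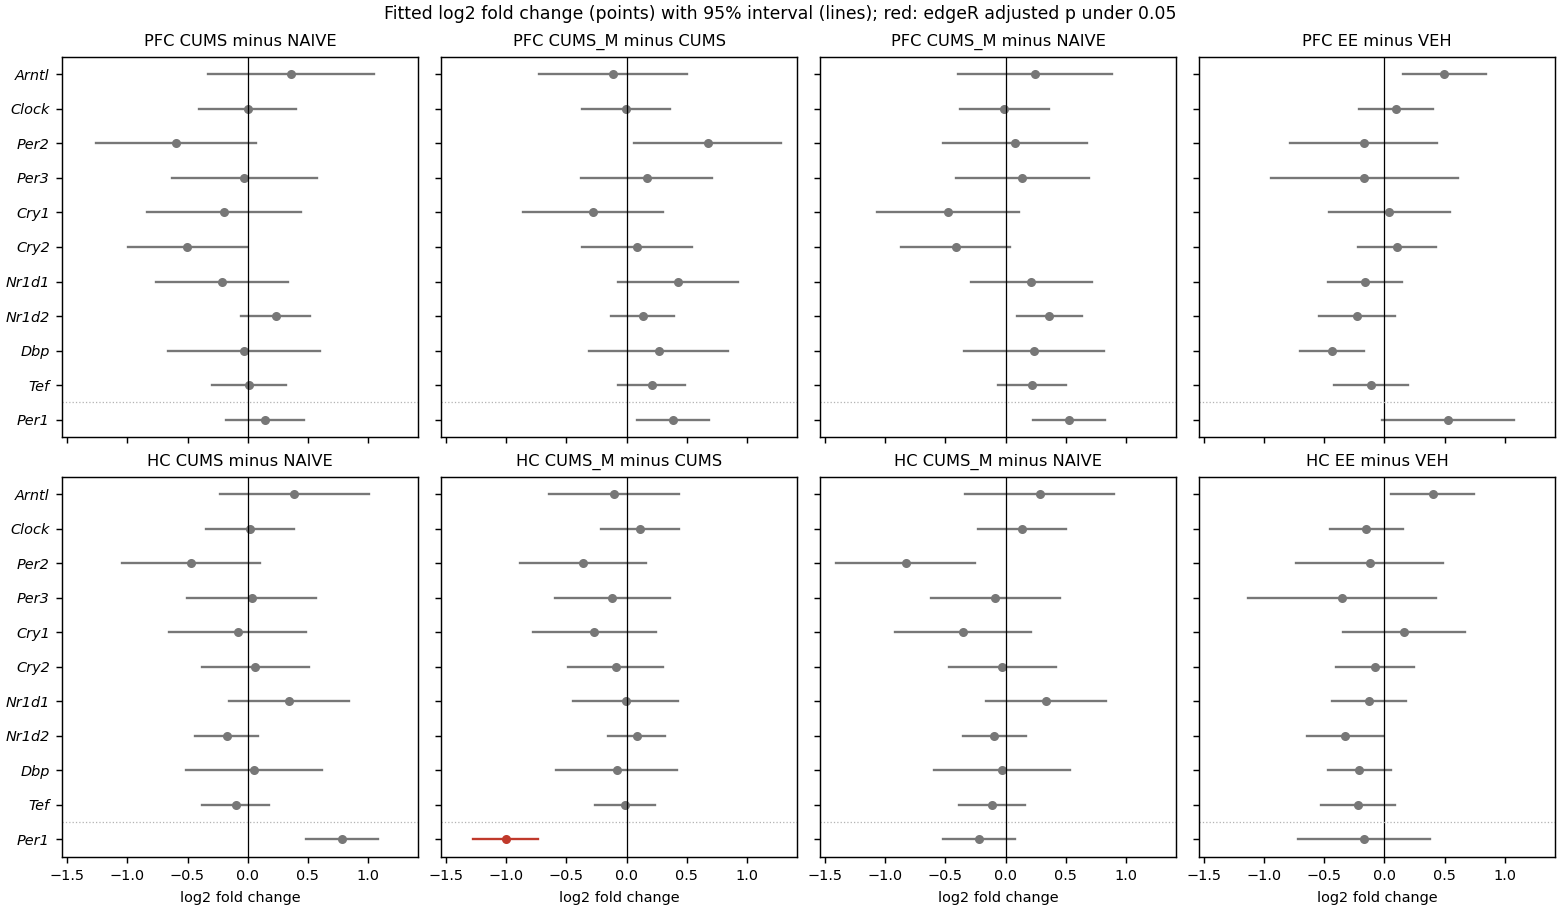
Fitted log2 fold change (horizontal axes) of each clock gene, with Per1 under the dotted line, in the 8 treatment comparisons; points are estimates, lines 95% intervals, and red marks an edgeR adjusted p under 0.05. None of the 10 genes is red, and in HC CUMS_M against CUMS all 10 lie between -0.36 and 0.11 while Per1 is at -1.01.

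The first comparison asked whether the CUMS protocol altered these genes. CUMS against NAIVE, CUMS_M against CUMS and CUMS_M against NAIVE share libraries, so their values are not independent of each other. In PFC, 0 of 10 genes were called by edgeR, where 0.816% of 14579 genes were, and 0 by DESeq2. One had an unadjusted p under 0.05, against 13.7% of all genes. The median log2 difference of the 10 was -0.03 and their median size 0.20, against 0.02 and 0.25 over all genes. That median ranged from -0.19 without PFC CUMS 2 to 0.05 without PFC CUMS 1, and the count with an unadjusted p under 0.05 was 0 without either of them and 2 without PFC NAIVE 2. Per2 was lower without overlap between the groups (as were 19.4% of all genes) and Nr1d2 higher (24.2%).

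Per2, a repressor of the loop, stood at 8.47 and 8.998 CPM in PFC CUMS and at 9.28 and 17.0 in PFC NAIVE. The groups did not overlap, but only 1 NAIVE library was well above the CUMS libraries, and the difference was -0.59 ± 0.32 (SE; edgeR adjusted p = 0.427). It was -0.95 without PFC NAIVE 1 and -0.09 without PFC NAIVE 2. Nr1d2, one of the repressors of Arntl, was at 83.3 and 97.6 CPM in CUMS and at 76.5 and 77.5 in NAIVE (0.23 ± 0.14, edgeR adjusted p = 0.484). Its difference ranged from 0.11 without PFC CUMS 2 to 0.35 without PFC CUMS 1. Cry2, the partner of PER proteins, was at 13.2 and 14.5 CPM in CUMS and at 25.0 and 14.3 in NAIVE. Only PFC NAIVE 1 was high, the library with the highest neuronal marker sum. The difference was -0.50 ± 0.24 (edgeR adjusted p = 0.362), -0.03 without that library, and -0.85 with an adjusted p of 0.0481 without PFC NAIVE 2, when PFC NAIVE 1 alone stood for the group and was assumed to vary like the other groups. Astrocyte markers (10 of 10 with counts) summed to 760.9 to 833.8 CPM in PFC CUMS and 234.2 to 271 in NAIVE, and endothelial and mural markers to 170.6 to 211.7 and 89.9 to 103.2; at least 8 of these 10 had counts in each library. Neutrophil markers (8 of 8 with counts) summed to 1516 to 1986 CPM in PFC CUMS and 2850 to 4097 in NAIVE, and those of border-associated macrophages (6 of 6) to 568.1 to 710 and 393.4 to 438.9. With markers of brain cells other than microglia as a covariate Cry2 was at -0.88 (edgeR adjusted p = 0.263), Per2 at -0.01 and Nr1d2 at 0.17. The part of the neutrophil and macrophage markers was not tested.

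In HC, 0 of 10 genes were called by edgeR (0% of all genes) or by DESeq2, and 0 had an unadjusted p under 0.05, against 2.87% of all genes (1 did without HC CUMS 1, without HC NAIVE 1 or with a covariate of markers of other cell types). The largest differences were Per2 at -0.47 ± 0.27, Arntl at 0.39 ± 0.30 and Nr1d1 at 0.34 ± 0.23, each with an edgeR adjusted p of 1. Arntl ranged from 0.05 without HC NAIVE 2 to 0.88 without HC NAIVE 1, and Nr1d1 from 0.07 without HC CUMS 3 to 0.56 without HC CUMS 1. Per2 was at 11.8, 12.6 and 14.4 CPM in HC CUMS and at 18.3 and 17.5 in HC NAIVE. These groups did not overlap, as for 10.1% of all genes in that direction. Markers of other cells were apart as well: astrocyte markers summed to 498.1 to 570.7 CPM in HC CUMS and 307.7 to 381.9 in HC NAIVE, oligodendrocyte markers to 690.8 to 857.5 and 500.6 to 512.1 (10 of 10 with counts for both), and neutrophil markers (8 of 8) to 138.2 to 383.2 and 622.5 to 1358. With markers of brain cells other than microglia as a covariate Per2 was at -0.22, Arntl at 0.76 and Nr1d1 at 0.41; the part of the neutrophil markers was not tested. The effect of the protocol on Nr1d2 differed between the regions by -0.41 ± 0.19 (HC minus PFC, unadjusted p under 0.05 as for 6.27% of all genes; edgeR adjusted p = 0.776). It was the 1 gene with such a p, and there was none without PFC NAIVE 1, HC NAIVE 1 or HC NAIVE 2. For such a difference 0 of 10 genes were called by edgeR (0% of all genes) or DESeq2.

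Minocycline under stress was compared next. In PFC CUMS_M against CUMS, edgeR called 0 of 10 genes (0.0206% of all genes) and DESeq2 0. The median of the 10 was 0.15, against 0.02 over all genes; it was 0.03 without PFC CUMS 1, 0.04 without PFC CUMS_M 3, 0.28 without PFC CUMS 2, 0.04 with a replicate block and 0.01 with the markers of other cell types as a covariate. Groups were apart without overlap for Per2 and Nr1d1, which were higher (8.98% of all genes), and Cry1, which was lower (12%). Per2 was at 10.2, 11.6 and 19.9 CPM in CUMS_M and at 8.47 and 8.998 in CUMS. It was highest in PFC CUMS_M 3, the PFC library with choroid plexus markers. The difference was 0.67 ± 0.29 (1 of the 10 with an unadjusted p under 0.05, against 5.54% of all genes; edgeR adjusted p = 0.765), 0.31 without that library and 0.04 with the covariate. No gene had an unadjusted p under 0.05 without PFC CUMS 1, without PFC CUMS_M 3 or with the covariate. Astrocyte markers summed to 310.5 to 508.6 CPM in CUMS_M and 760.9 to 833.8 in CUMS. Oligodendrocyte markers were at 262.7 to 398.3 and 700.8 to 744.8, neuronal markers at 9.68 to 20.8 and 28.5 to 35.4. Endothelial and mural markers were at 84.4 to 105.9 and 170.6 to 211.7. The covariate was built from these lists, all apart by treatment, so it cannot be told apart from the treatment here. Neutrophil and border-associated macrophage markers overlapped.

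Nr1d1, which represses Arntl, was at 66.6, 86.1 and 75.0 CPM in PFC CUMS_M and at 46.9 and 66.1 in PFC CUMS (0.43 ± 0.23, edgeR adjusted p = 1). The lowest treated library and the higher CUMS library were nearly level. Cry1, a repressor, was at 6.96, 6.55 and 5.75 CPM in CUMS_M and at 7.70 and 7.88 in CUMS (-0.28 ± 0.28, edgeR adjusted p = 1). Nr1d1 ranged from 0.20 without PFC CUMS 1 to 0.69 without PFC CUMS 2. It was 0.44 without PFC CUMS_M 3 and 0.26 with the covariate. Cry1 ranged from -0.34 to -0.20, the latter without PFC CUMS_M 3, and stood at 0.25 with the covariate.

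In HC CUMS_M against CUMS the differences of the 10 genes ran from -0.36 (Per2) to 0.11 (Clock) with a median of -0.09, against 0.01 over all genes (0.02 without HC CUMS_M 1), and no gene was apart without overlap (6.04% of all genes were higher and 4.27% lower). edgeR called 0 of 10 (0.00686% of all genes), DESeq2 0, and 0 had an unadjusted p under 0.05 (4.01% of all genes). The 95% intervals of the 10 reached from -0.88 to 0.44. Per1, the remaining Per gene, differed by -1.01 ± 0.13 (95% interval -1.27 to -0.74, edgeR adjusted p = 0.00311, and 0.0632 without HC CUMS_M 1), an estimate below the intervals of all 10. Per2 was at 9.40, 8.29 and 12.5 CPM in CUMS_M and at 11.8, 12.6 and 14.4 in CUMS (-0.36 ± 0.25). These groups overlapped. Per3 was at 21.5, 27.1 and 33.5 CPM in CUMS_M and at 25.1, 34.9 and 29.0 in CUMS (-0.12 ± 0.22). It too overlapped.

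The effect of minocycline on Per2 differed between the regions by -1.03 ± 0.38 (HC minus PFC, edgeR adjusted p = 0.999), and by -0.68 without PFC CUMS_M 3. It was the 1 of 10 genes with an unadjusted p under 0.05 in that test, against 3.47% of all genes; without PFC CUMS_M 3 there was none, and without HC CUMS 1 there were 2. None of the 10 was called by edgeR (0.00686% of all genes) or by DESeq2.

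Mice with the protocol and minocycline were also set against NAIVE. In PFC, edgeR called 0 of 10 (0.0892% of all genes), DESeq2 0, and 1 had an unadjusted p under 0.05 (14% of all genes), Nr1d2. That count was 0 without PFC CUMS_M 1, 2 without PFC CUMS_M 3 and 4 without PFC NAIVE 2. It was at 109.4, 89.4 and 98.2 CPM in CUMS_M and at 76.5 and 77.5 in NAIVE. All treated libraries were above both NAIVE libraries (13.9% of all genes were higher in this way and 11.4% lower), and the difference was 0.36 ± 0.13 (edgeR adjusted p = 0.234). It ranged from 0.29 to 0.43 without each library in turn. Its paralog Nr1d1 overlapped, at 0.21 ± 0.23 (0.42 without PFC NAIVE 1 and 0.03 without PFC NAIVE 2). In HC, edgeR called 0 of 10 (0% of all genes), DESeq2 0, and 1 had an unadjusted p under 0.05 (2.33% of all genes), Per2. Against 18.3 and 17.5 CPM in HC NAIVE, the CUMS_M libraries above were all lower, as for 8.16% of all genes (-0.83 ± 0.28, 95% interval -1.41 to -0.26, edgeR adjusted p = 1). Nr1d1 was higher without overlap in HC CUMS_M (53.5, 63.9 and 69.5 CPM against 49.7 and 49.1; 9.54% of all genes), at 0.33 ± 0.23 (edgeR adjusted p = 1).

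Environmental enrichment under stress was the question of the other experiment. In PFC EE against VEH, edgeR called 0 of 10 genes (0% of all genes) and DESeq2 0. Arntl and Dbp had an unadjusted p under 0.05, as 4.25% of all genes did, Arntl higher without overlap (4.8% of all genes) and Dbp lower (4.39%). Arntl, the activator, was at 12.1, 11.96 and 11.9 CPM in PFC EE and at 7.78, 9.03 and 8.59 in PFC VEH. All EE libraries were above all VEH libraries, and they lay close together. The difference was 0.50 ± 0.16 (95% interval 0.15 to 0.84, edgeR adjusted p = 0.986).

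Dbp, an output gene driven by the activators, was at 46.1, 45.9 and 56.4 CPM in PFC EE and at 72.5, 63.3 and 65.1 in PFC VEH. All EE libraries were below all VEH libraries, by -0.44 ± 0.12 (95% interval -0.70 to -0.17, edgeR adjusted p = 0.986). The other 8 genes overlapped, from -0.23 ± 0.15 for Nr1d2 to 0.10 ± 0.15 for Cry2. Astrocyte markers overlapped between these groups (442.7 to 666.4 CPM in EE and 454.5 to 665.5 in VEH, 10 of 10 with counts in each library).

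In HC EE against VEH, edgeR again called 0 of 10 (0% of all genes) and DESeq2 0. Arntl and Nr1d2 had an unadjusted p under 0.05, as 10.4% of all genes did. That count was 0 without HC VEH 1, HC VEH 2 or HC EE 1, 1 without HC EE 2 or HC EE 3, and 0 with the markers of other cell types as a covariate. Arntl was at 11.7, 10.8 and 11.9 CPM in HC EE and at 7.68, 8.45 and 9.89 in HC VEH, higher in every EE library (9.66% of all genes). The difference was 0.40 ± 0.16 (95% interval 0.06 to 0.74, edgeR adjusted p = 0.387). Nr1d2 was at 108.3, 126.3 and 128.9 CPM in HC EE and at 145.4, 144.8 and 166.4 in HC VEH, lower in every EE library (6.36% of all genes), by -0.33 ± 0.15 (edgeR adjusted p = 0.464). Without each library in turn Arntl ranged from 0.31 to 0.50 and Nr1d2 from -0.39 to -0.24.

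Dbp in HC was at 53.5, 51.0 and 61.3 CPM in EE and at 66.2, 69.1 and 56.4 in VEH (-0.21 ± 0.12, edgeR adjusted p = 0.618). Here the groups overlapped, through HC VEH 3. Markers of other cells moved with the HC groups: astrocyte markers summed to 701.6 to 975.7 CPM in EE and 453.9 to 580 in VEH, oligodendrocyte markers to 482.2 to 870.3 and 245.1 to 316 (10 of 10 with counts for both), and 6 of 6 markers of border-associated macrophages to 560 to 770.9 and 332.7 to 423.3. Choroid plexus markers were apart as well, at 510.5 to 1983 CPM in HC EE and 0.66 to 212 in HC VEH. With markers of astrocytes, neurons, oligodendrocytes, and endothelial and mural cells as a covariate Arntl stood at 0.43 and Nr1d2 at -0.39 in HC (edgeR adjusted p = 0.754 and 0.750). The part of the macrophage and choroid plexus markers was not tested. None of the 10 genes was called for a difference of the enrichment effect between regions by edgeR (0% of all genes) or DESeq2, and 0 had an unadjusted p under 0.05 (4.21% of all genes). That difference was -0.10 ± 0.23 for Arntl and 0.23 ± 0.17 for Dbp.

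The enrichment effect was also averaged over the regions, a comparison added after the values were seen. The fit took PFC and HC libraries as independent, but the labels do not say whether they come from the same mice. If they do, the SE and p-values below do not account for it. The replicate block tried for this comparison did not link the regions. Arntl was at 8.57 CPM over VEH and 11.7 over EE, a difference of 0.45 ± 0.11 (edgeR adjusted p = 0.173, DESeq2 adjusted p = 0.00946). Dbp was at 65.4 and 52.4 CPM (-0.32 ± 0.09, edgeR adjusted p = 0.199, DESeq2 0.05001) and Nr1d2 at 142.3 and 117.1 CPM (-0.28 ± 0.10, edgeR adjusted p = 0.356). edgeR called 0 of 10 here and 0.107% of all genes; DESeq2 called Arntl alone of the 10, the Dbp value lying just above its threshold, and 285 of all genes. These 3 genes had an unadjusted p under 0.05, against 10.8% of all genes. The difference of Arntl ranged from 0.41 to 0.50 when each library in turn was left out.

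Since Arntl was higher and Dbp lower, the ratio of their CPM, which does not depend on the scaling of a library, was taken as a description. It was 3.82, 3.84 and 4.75 in PFC EE and 9.32, 7.01 and 7.57 in PFC VEH. In HC it was 4.59, 4.72 and 5.16 in EE and 8.62, 8.18 and 5.70 in VEH. The EE libraries lay below the VEH libraries in both regions. In PFC this had to follow, since Arntl and Dbp were each apart there in opposite directions. In HC Arntl was apart and Dbp overlapped. In the minocycline experiment the ratio ran from 3.12 in PFC CUMS 1 to 10.1 in HC NAIVE 2, and HC CUMS alone spanned 3.89 to 10.02, so libraries of 1 group could differ as widely as these groups did.

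**Figure D3:**
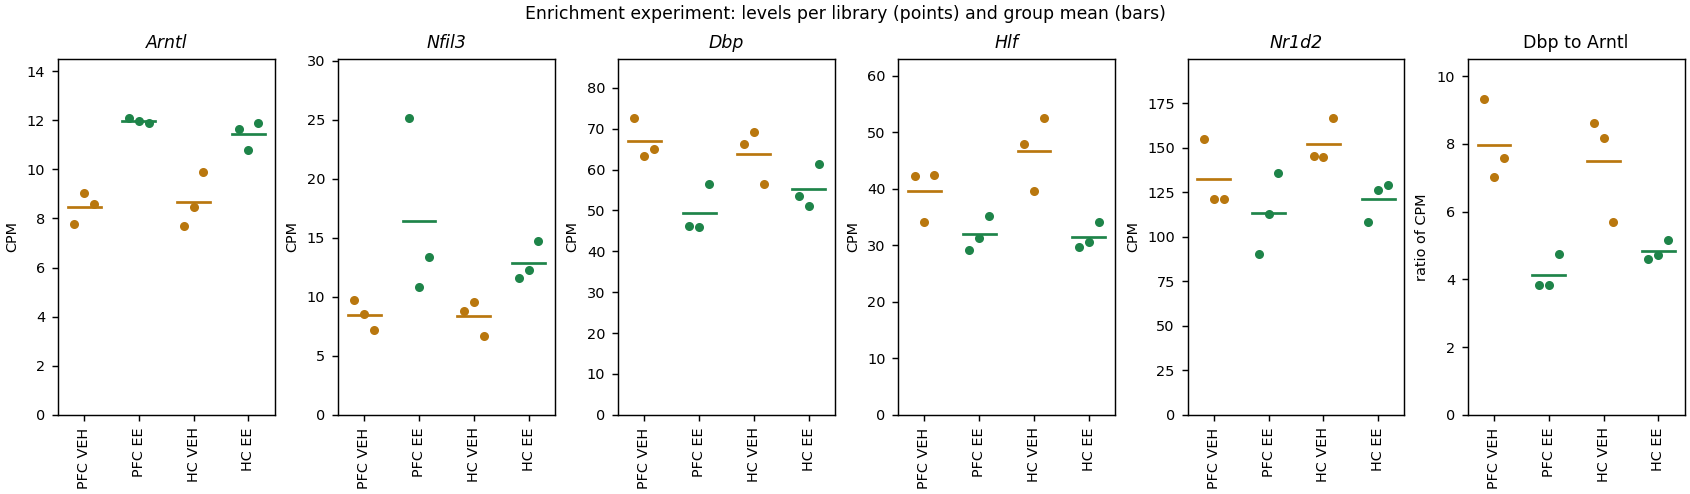
Levels of Arntl, Nfil3, Dbp, Hlf and Nr1d2 in CPM and the ratio of Dbp to Arntl (vertical axes, from 0) in the enrichment experiment, by library (points) with group means (bars). Arntl is higher and the ratio lower in every EE library than in every VEH library of its region, and the ratio stays at 5.16 or less in EE.

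Further clock genes were followed as a list of 17. It held nuclear receptors, D-box factors, the repressors of the Bhlhe family, and kinases and ubiquitin ligases of the PER and CRY proteins. Npas2, Ciart, Usp2 and Wee1 were also in it. The filter kept 15 of the 17 in the minocycline experiment and 16 in the enrichment experiment. edgeR called none of these in any of the 13 comparisons (199 tests), with 8 unadjusted p under 0.05. Such a p was reached by 2.08% to 19% of all genes, depending on the comparison. Over the same 13 comparisons the calls of DESeq2 were 2, both in HC EE against VEH, where it called 441 of 15921 genes. In the enrichment effect averaged over regions it called 2, Hlf (adjusted p = 0.00601) and Nfil3 (0.0134), of 285 genes in all. In HC EE against VEH the median of the list was -0.02, against -0.03 over all genes. Hlf, the D-box activator related to Dbp and Tef, was at 29.6, 30.6 and 34.1 CPM in HC EE and at 47.9, 39.6 and 52.4 in HC VEH. It was lower in every EE library, as were 6.36% of all genes (-0.57 ± 0.14, edgeR adjusted p = 0.119, DESeq2 0.0129). Bhlhe40, a repressor of the activator pair, was the other DESeq2 call, at 9.67, 8.27 and 10.3 CPM in EE and 5.75, 3.92 and 3.06 in VEH (1.15 ± 0.32, edgeR adjusted p = 0.166, DESeq2 0.0260).

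Nfil3, which opposes DBP at D-boxes, had the smallest p of the list in PFC EE against VEH. It was at 25.1, 10.8 and 13.4 CPM in PFC EE and at 9.72, 8.55 and 7.19 in PFC VEH, with PFC EE 1 far above the rest (0.96 ± 0.27, edgeR adjusted p = 0.986). In HC it was at 11.6, 12.2 and 14.7 CPM in EE and 8.81, 9.55 and 6.68 in VEH (0.62 ± 0.27, edgeR adjusted p = 0.451). The groups did not overlap in either region, as for 4.8% of all genes in PFC and 9.66% in HC in that direction. In the minocycline experiment the genes of smallest p included Rorb (-1.94 in PFC CUMS_M against CUMS and 1.90 in HC CUMS against NAIVE, at no more than 2.88 CPM), Bhlhe41 (-0.27 in PFC CUMS against NAIVE), Csnk1e (-0.16 in HC CUMS_M against CUMS) and Nfil3 (-0.63 in PFC CUMS_M against NAIVE), each with an edgeR adjusted p of 0.386 or more. Csnk1e was also that gene in HC CUMS_M against NAIVE (-0.15) and for the regional difference of the minocycline effect (-0.22), Bhlhe41 for that of the protocol (0.31) and Bhlhe40 for that of enrichment (0.88), each with an adjusted p of 0.913 or more. Nfil3 was at 9.41 CPM in PFC NAIVE 1, 24.03 in PFC NAIVE 2 and 7.67 to 12.67 in PFC CUMS_M. Only PFC NAIVE 2 was above the CUMS_M libraries. Bhlhe41 was at 203.9 and 172.8 CPM in PFC NAIVE 1 and 2, and at 149.6 and 162.4 in PFC CUMS.

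The regions were compared over all treatments. In the minocycline experiment edgeR called 0 of 10 genes, against 5.1% of all genes, and DESeq2 0. Clock and Nr1d2 had an unadjusted p under 0.05, as 19% of all genes did. That count was 0 without PFC CUMS_M 3 or HC NAIVE 1, 3 without HC CUMS 3, and 1 or 2 without each other library. With the markers of other cell types as a covariate it was 0. The DESeq2 Wald test gave 1, a replicate block 3 and no count filter 4. Clock, the partner of ARNTL, was at a mean of 33.6 CPM in HC and 39.7 in PFC, where it ran from 31.1 to 48.6. Its difference was -0.25 ± 0.10 (HC minus PFC, edgeR adjusted p = 0.184), -0.13 without PFC NAIVE 2, and -0.34 with an adjusted p of 0.0425 without PFC NAIVE 1. Nr1d2 was at 79.5 CPM in HC and 88.8 in PFC (-0.15 ± 0.07, edgeR adjusted p = 0.260). In the enrichment experiment, where the choroid plexus markers did not follow the labels, edgeR called 0 of 10 (0% of all genes), DESeq2 0, and 0 had an unadjusted p under 0.05 (2.08% of all genes). The 10 differences lay between -0.14 and 0.15. Of the other clock genes, Nfil3 had the smallest p between regions in the minocycline experiment (-0.47 ± 0.19, edgeR adjusted p = 0.165) and Csnk1e in the enrichment experiment (-0.10).

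Whether the genes vary together was examined across libraries of 1 region at a time, for 3 pairs in 4 sets of libraries, 12 relations in all. None passed Benjamini-Hochberg adjustment over the 12. Dbp and Nr1d1, which peak at a like phase in cycling tissues, had r = 0.84 and rho = 0.69 in HC of the minocycline experiment (n = 8, exact permutation p = 0.00848 and 0.0694, adjusted 0.102 and 0.327). Without HC CUMS 1 and HC CUMS 3, its lowest and highest libraries, r was 0.38. Leaving out both ends narrows the range of Dbp, which by itself can lower r. This value therefore cannot show whether the relation holds among the other libraries. Both libraries left out belong to the same group: Dbp was at 44.7, 60.7 and 92.9 CPM in HC CUMS 1, 2 and 3. Nr1d1 was at 44.4, 59.6 and 83.7 CPM there. In PFC of that experiment r was 0.71 and rho 0.68 (n = 7, exact permutation p = 0.0792 and 0.110, adjusted 0.238 and 0.327), and r was 0.79 without 2 libraries. In PFC of the enrichment experiment r was 0.825 and rho 0.771 (n = 6, exact permutation p = 0.0403 and 0.103, adjusted 0.161 and 0.327), and r was 0.48 without PFC EE 1 and 2. Since Dbp was lower in every EE library there, the treatment difference enters this pooled r and its p. The relation within those groups cannot be tested. In HC of the enrichment experiment r was 0.085 and rho 0.37 (n = 6, exact permutation p = 0.878 and 0.497, adjusted 0.989 and 0.663; r = 0.16 without 2 libraries).

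For Arntl with Dbp, the PFC libraries of the enrichment experiment fell into their treatment groups, of 3 each, so no pooled r is given there and the relation within groups cannot be tested. In HC of that experiment r was -0.71 and rho -0.54 (n = 6, exact permutation p = 0.126 and 0.297, adjusted 0.303 and 0.560), and r turned to 0.28 without HC VEH 1 and 2. Arntl was higher in every EE library there, so the treatment difference enters any pooled r of Arntl in that set and its p. In the minocycline experiment r was -0.17 in HC (n = 8, rho -0.31, exact permutation p = 0.599 and 0.462, adjusted 0.898 and 0.663), where it became -0.86 without HC NAIVE 2 and HC CUMS_M 3. It was 0.11 in PFC (n = 7, rho 0.14, exact permutation p = 0.795 and 0.782, adjusted 0.989 and 0.803), and 0.56 without 2 libraries. Arntl with Nr1d1 had r between -0.36 and 0.01 in the 3 sets other than PFC of the enrichment experiment, with exact permutation p of 0.746 or more after adjustment. Without 2 libraries these values were not stable: r was -0.79 in HC of the minocycline experiment (from 0.01), -0.58 in HC of the enrichment experiment (from -0.01) and 0.34 in PFC of the minocycline experiment (from -0.36).

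**Figure D4:**
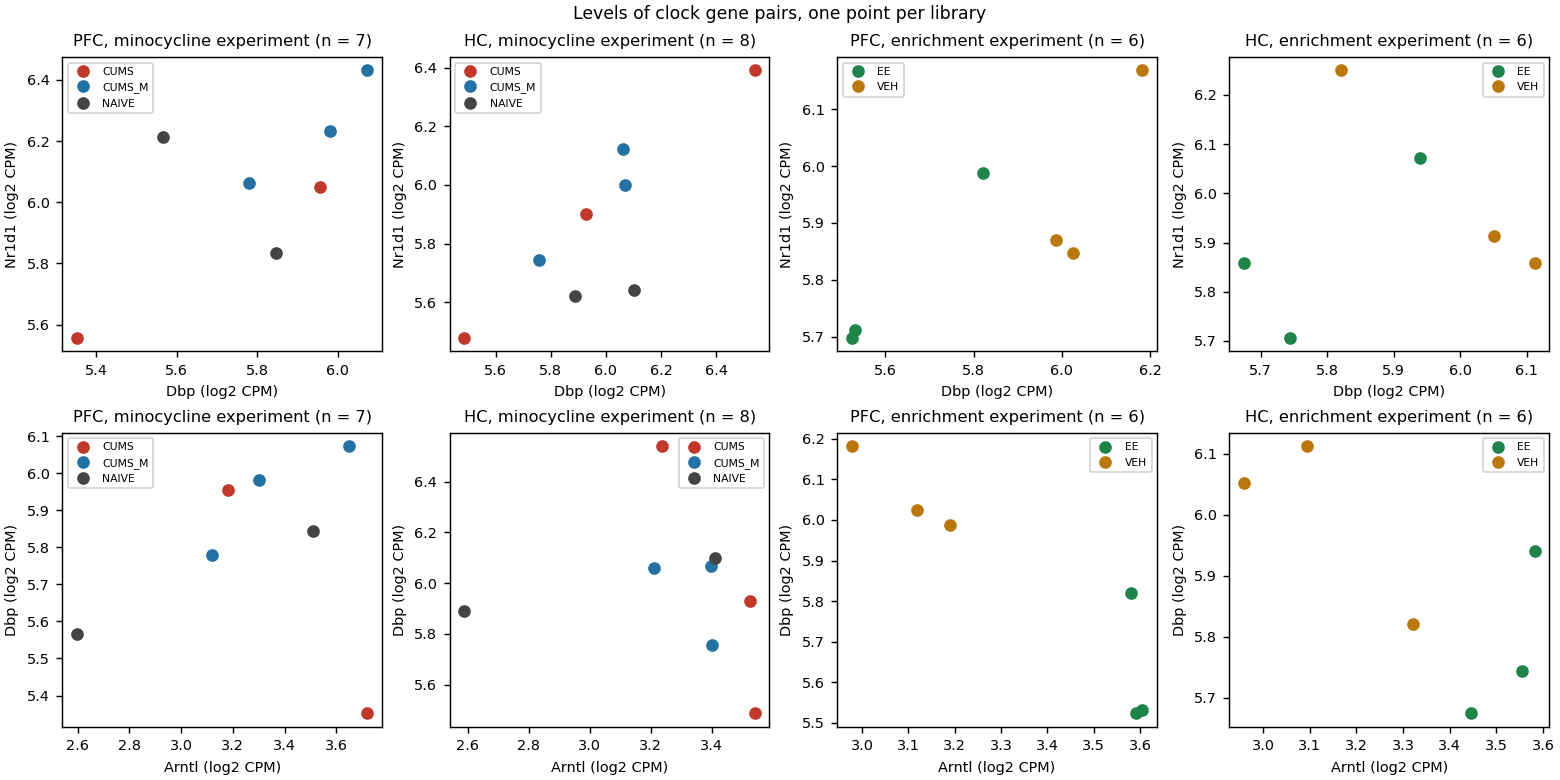
Nr1d1 against Dbp (upper row) and Dbp against Arntl (lower row) in log2 CPM, 1 point per library, coloured by treatment, for each region of each experiment; the axes do not start at 0. In PFC of the enrichment experiment the 3 EE and 3 VEH libraries form separate clusters in the lower row, and in HC of the minocycline experiment the lowest and highest Dbp are both CUMS libraries.

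The genes outside the 10 whose levels followed Dbp, Nr1d1 and Arntl most closely were ranked among 14206 by the lower of 2 correlations, over 15 minocycline and 12 enrichment libraries with region means removed. The points share their library, depth and treatment, and no p is attached. For Dbp they were Ssbp2 (0.69 and 0.77), Ang (0.66 and 0.79) and Cmtm3 (0.64 and 0.77). For Nr1d1 they were Maf, a transcription factor of macrophages (0.82 and 0.74), Tbc1d8b (0.71 and 0.73) and Hlf (0.78 and 0.68). For Arntl they were Ankle2 (0.76 and 0.73), Ankrd17 (0.77 and 0.73) and Itprid2 (0.72 and 0.80). Among the 10 themselves, the highest for Dbp were 0.78 and 0.51 with Nr1d1, 0.76 and 0.52 with Tef, and 0.50 and 0.67 with Nr1d2. Per3 (0.44 and 0.24) and Per2 (0.37 and 0.325) were lower. Clock was at -0.17 and -0.135, Cry1 at -0.14 and 0.22, Cry2 at -0.02 and 0.185, and Arntl at -0.03 and -0.84. Treatment means were not removed, so the treatment difference enters the enrichment values.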

How the data were processed

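CD11b+ cells of 2 brain regions were profiled by polyA RNA sequencing, in 15 libraries of a minocycline and 12 of an enrichment experiment. The deposited files hold counts per gene, 1 table per experiment, made by the authors. Per the series design text, libraries were strand-specific and read as pairs. Per the submitters' processing notes, reads were processed with Trimmomatic 0.36, STAR 2.6.1b, Picard 2.17.1, featureCounts 1.5.3 and DESeq2 1.24.0 on mm10/GRCm38. Which annotation release and strand setting the counting used, and how duplicates were handled, are not given in the sources used here.

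The 10 genes were matched by Ensembl identifier to GENCODE M21 symbols, and exon lengths are the union of exons there. The genes, the marker lists, the other clock genes and the tests were chosen with earlier results of these data known. Counts were filtered with filterByExpr (minimum count 10, minimum total 15), which left 14579 and 15921 genes, and scaled by TMM (edgeR 4.0.16, limma 3.58.1, R 4.3.3). Each table was fitted alone with 1 mean per region and treatment and no covariate. The robust quasi-likelihood F-test was used, with Benjamini-Hochberg adjustment over all genes of a contrast and a threshold of 0.05. Group separations use CPM per library. Log2 CPM for correlations has a prior count of 2, and permutation tests were exact and two-sided (scipy 1.17.1, Python 3.11.15). Intervals come from the fit.

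Alternatives were DESeq2 size factors, no count filter, the DESeq2 1.42.0 Wald test, a replicate block, a covariate of non-microglial markers, only the groups compared, and each library left out. That covariate held markers of astrocytes, neurons, oligodendrocytes, and endothelial and mural cells, and of no other cell type. The average of the enrichment effect over regions was added after the values were seen. Named genes are all 10, the other clock genes called or of smallest p in a comparison, Per1, Itgam, and the 3 most alike for Dbp, Nr1d1 and Arntl. In HC EE against VEH, Bhlhe40 and Nfil3 were named beyond that rule, after their values were seen. Same-numbered replicates are not said to share an animal. Their deviations from the group means correlated at 0.36, 0.20 and 0.21 between PFC VEH and PFC EE, a possible pairing that the labels do not state. Between PFC VEH and HC VEH the values were 0.44, -0.04 and 0.22. For the other groups compared they lay between -0.28 and 0.12. Scripts were tested on simulated data. Motif letters were searched in RefSeq windows.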

Additional observations from a re-analysis of the deposited data

Results flagged for a closer look

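The effect of minocycline on Per1, the Per gene outside the 10, differed between the regions by a test of the difference itself, -1.39 (HC minus PFC, log2 scale, edgeR adjusted p = 0.0107). The adjusted p was 0.197 without PFC CUMS 1, 0.151 without PFC CUMS 2, 0.0575 without HC CUMS 3 and 0.0631 without HC CUMS_M 1, and the value was -0.91 (0.995) with the marker covariate. Among the 10 clock genes the same difference ran from -1.03 (Per2) to 0.12 (Clock), none past the threshold in edgeR, where 1 had an unadjusted p under 0.05, or in DESeq2.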

How the results depend on the processing

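Among the fold changes with an unadjusted p under 0.05 and those of Per1, none changed sign under any setting tried. Of the 80 differences of the 10 genes between treatments, 41 changed sign without some library and 16 with the marker covariate, none of them past the threshold; all 10 genes were refitted so after the values were seen. The 24 alternative values of the correlations kept their side of the threshold. The count of the 10 genes called was 0 in 79 alternative fits that kept all libraries, and 1 with the DESeq2 Wald test for the enrichment effect averaged over regions (Arntl). With single libraries left out it ranged from 0 to 1 for PFC CUMS against NAIVE (Cry2, without PFC NAIVE 2) and from 0 to 1 for HC against PFC in the minocycline experiment (Clock, without PFC NAIVE 1), and was 0 in the other 111 such fits. With a replicate block the count stayed 0 in every comparison: Arntl was at 0.50 and Dbp at -0.44 in PFC EE against VEH (edgeR adjusted p = 0.995 for both), where the numbers may pair the libraries. The block moved Per2 in PFC CUMS_M against CUMS to 0.31; it changed no call among the 10. Over all genes DESeq2 called 348 against 119 by edgeR in PFC CUMS against NAIVE and 441 against 0 in HC EE against VEH. The causes were not tested. Arntl and Cry1, with the fewest counts, have the least certain levels per library, and groups of 2 or 3 libraries limit every comparison.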
